A study of Mus musculus with 10 samples.

Results

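Tmem119, Fcrls, Olfml3, Sparc, Selplg, Slc2a5, Adgrg1, Crybb1 and Golm1 are genes by which microglia, the resident macrophages of the brain tissue, are commonly told from other macrophages. These 9 genes were taken by name from the 49315 genes counted in each library, by matching the Ensembl identifier of each row to its mouse symbol, and all 9 were found and passed the filter on low counts in every comparison. RNA was sequenced from brain cells of C57BL/6 mice that had been sorted by flow cytometry as microglia with (CD11c+) or without (CD11c-) surface CD11c, the integrin chain encoded by Itgax. Pups of postnatal day 5 (P5) gave 3 libraries of each subset, and mice aged 9 months gave 2 of each. All were labelled wild type, with no transgene, deletion or treatment in any group. Whether replicates are separate animals, pools of animals or parts of 1 preparation is not stated, so the spread that the p-values rest on may be technical.

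Microglia settle in the brain early in embryonic life and take on their characteristic gene programme under local signals, among them transforming growth factor beta and colony-stimulating factor 1. Genes such as Tmem119 are weakly expressed in immature microglia and become prominent as the cells mature, and the programme is commonly dampened in activated microglia. CD11c+ microglia are a sparse subset that is prominent in developing white matter and reappears with ageing and disease.

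The genes lie on 6 chromosomes, and coordinates are those of the deposited tables. Tmem119 (ENSMUSG00000054675; chromosome 5, 113793729 to 113800516, minus strand) and Selplg (ENSMUSG00000048163; chromosome 5, 113818536 to 113832644, minus strand) are direct neighbours, 18.02 kb apart, and both were followed as identity genes. Crybb1 (ENSMUSG00000029343; 112255815 to 112269585, plus strand) is on the same chromosome. Fcrls (ENSMUSG00000015852; 87250758 to 87263738, minus strand) and Olfml3 (ENSMUSG00000027848; 103722222 to 103738001, minus strand) are on chromosome 3. Sparc (ENSMUSG00000018593) spans 55394500 to 55423183 of chromosome 11, minus strand. Slc2a5 (ENSMUSG00000028976) spans 150119283 to 150144169 of chromosome 4, plus strand. Adgrg1 (ENSMUSG00000031785) spans 94974751 to 95014217 of chromosome 8, plus strand. Golm1 (ENSMUSG00000021556) spans 59634996 to 59675784 of chromosome 13, minus strand. All 9 are annotated as protein coding, reads were counted over their exons, and no other counted gene overlaps any of them.

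Upstream sequence is shown for the pairs of genes with the most and the least parallel levels among the 7 for which a RefSeq window was matched. Golm1 and Olfml3 gave Pearson's r = 0.984 over 10 libraries, and Crybb1 and Slc2a5 gave r = 0.012. Sequences are the RefSeq bases (GRCm38.p6) before the annotated start, 5′ to 3′ on the gene's strand. Capitals mark CAGACA or its complement TGTCTG, a form of the box bound by SMAD proteins, and TATAAA or its complement TTTATA, the core of a TATA box. The windows lie at chr13:59675785-59676034 (Golm1, minus strand), chr3:103738002-103738251 (Olfml3, minus strand), chr5:112255570-112255814 (Crybb1, plus strand) and chr4:150119094-150119282 (Slc2a5, plus strand).
Golm1: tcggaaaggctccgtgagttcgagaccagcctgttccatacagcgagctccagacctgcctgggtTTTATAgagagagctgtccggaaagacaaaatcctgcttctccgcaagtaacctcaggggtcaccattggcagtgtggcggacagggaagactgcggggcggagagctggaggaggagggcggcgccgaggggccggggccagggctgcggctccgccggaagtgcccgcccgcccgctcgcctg
Olfml3: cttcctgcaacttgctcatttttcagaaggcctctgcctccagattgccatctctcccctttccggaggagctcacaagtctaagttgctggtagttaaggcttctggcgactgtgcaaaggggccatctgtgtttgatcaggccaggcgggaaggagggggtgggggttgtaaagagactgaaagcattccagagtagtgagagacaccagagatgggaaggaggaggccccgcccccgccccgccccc
Crybb1: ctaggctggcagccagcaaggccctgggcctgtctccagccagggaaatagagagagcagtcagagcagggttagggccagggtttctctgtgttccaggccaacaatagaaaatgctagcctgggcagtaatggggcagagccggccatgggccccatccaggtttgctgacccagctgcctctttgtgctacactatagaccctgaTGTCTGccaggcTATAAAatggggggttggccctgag
Slc2a5: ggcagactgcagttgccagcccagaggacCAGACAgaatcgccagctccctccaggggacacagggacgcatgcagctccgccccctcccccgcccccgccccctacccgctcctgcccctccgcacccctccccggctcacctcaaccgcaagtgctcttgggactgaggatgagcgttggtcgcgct

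Crybb1 holds 1 match to each of these motifs, Slc2a5 holds 1 CAGACA, Golm1 holds 1 TATAAA and Olfml3 holds neither. RefSeq windows were matched for 7 of the 9 genes, all but Tmem119 and Selplg. These 7 genes had 8 windows, as Adgrg1 had more than 1. Each count of genes is also the count of windows with a match. Over the 250 bases upstream, annotated exons included and read on both strands, CAGACA occurred in 5 of the 7 genes (Adgrg1, Crybb1, Fcrls, Slc2a5 and Sparc). It occurred in 17.1% of 32851 promoter windows of the same length. TATAAA occurred in 3 of 7 (Crybb1, Fcrls and Golm1) and in 12.4% of all windows. In the exon-free stretch kept of each window, CAGACA remained only in Crybb1 and Slc2a5. TATAAA remained there only in Crybb1 and Golm1. That stretch was 36 bases long in Fcrls and 5 in Sparc. The other motifs searched were GAGGAA, an ETS-type core bound by the macrophage factor PU.1, TGANTCA, the AP-1 site, and TATTTATA, a MEF2-type site. GAGGAA was found in 1 of 7 (Fcrls) against 23.3% of all windows, TGANTCA in 1 of 7 (Adgrg1) against 6.75%, and TATTTATA in 0 of 7 against 1.56%. No motif was contained in another. The motifs were chosen with the expression values known, and a match describes letters in a window, not a bound site.

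Total counts were between 11892082 and 25483573, except for P5 CD11c+ replicate 2 with 2619610. That library stood apart. Across genes, Pearson's r of its log2 levels to those of any other P5 library was 0.627 to 0.697, against 0.947 to 0.993 between the others. In it 23033 genes reached 1 CPM (counts scaled to the library total), against 12762 to 14735 elsewhere. Fold changes, calls and correlations that include it are therefore also given without it. The 9-month libraries were made with a SMART-Seq v4 low-input kit that is not stated for P5, so age and library preparation cannot be told apart and levels at the 2 ages are described without a test. The 9-month CD11c- libraries held 13.9% and 18.9% of their counts in 18 neutrophil markers, led by S100a8, and 1.36% and 1.58% in 12 monocyte markers. In the other 8 libraries the neutrophil share was 0.0421% to 0.384%. The 8 eosinophil markers, led by Prg2, took 0.149% and 0.157% in 9-month CD11c- libraries and 0.00193% to 0.00891% in the others. Itgax itself was higher in CD11c+ cells at 9 months (log2 fold change 2.08, SE 0.331, edgeR adjusted p = 0.00397) and was estimated at 1.63 (SE 0.607, adjusted p = 0.622) at P5. Without the outlying library it passed at P5, at 2.06 (SE 0.377, adjusted p = 0.0222).

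The 9 genes together took 2.23% and 2.06% of all counts in the 9-month CD11c+ libraries, against 0.707% and 0.574% in CD11c- cells of that age. At P5 they took 0.456%, 0.154% and 0.498% in CD11c+ libraries 1, 2 and 3 and 0.895%, 0.578% and 0.495% in CD11c- libraries. The 2 ages thus differed in which subset carried the larger share, with overlapping ranges at P5 and separate ranges at 9 months. These are bulk libraries, in which fewer microglia and less of a transcript per microglia cannot be told apart.

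At the cell surface, Tmem119, a transmembrane protein used as a marker of microglia, had the largest ratio of highest to lowest CPM among the 9 genes. It stood at 95.1, 27.1 and 159 CPM in P5 CD11c+ libraries and at 529.8, 249.7 and 277 CPM in P5 CD11c- libraries. At 9 months it stood at 4202 and 3361 CPM in CD11c+ and at 998 and 635 CPM in CD11c- libraries. All 4 groups were separate, and the P5 CD11c+ group was lowest with replicate 2 at its bottom. Selplg, which encodes the selectin ligand PSGL-1 of leukocytes, was at 162, 76.3 and 261 CPM in P5 CD11c+ and 407, 260.5 and 313 CPM in P5 CD11c- libraries. It was at 6319 and 5782 CPM in 9-month CD11c+ and 2459.9 and 2172 CPM in 9-month CD11c- libraries, the highest CPM of any of the 9 genes at that age. The P5 groups of Selplg touched, since CD11c+ replicate 3 lay just above the lowest CD11c- library.

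Fcrls encodes a scavenger-like receptor related to the Fc receptors. It was at 2369, 825 and 2294 CPM in P5 CD11c+ libraries and 2971, 1832 and 1466 CPM in P5 CD11c- libraries, and these ranges overlapped. At 9 months it was at 2937 and 2658 CPM in CD11c+ libraries and at 642 and 481 CPM in CD11c- libraries. The lowest Fcrls group was thus the 9-month CD11c- cells, unlike Tmem119 and Selplg. Slc2a5, the fructose transporter GLUT5, was at 51.7, 24.0 and 55.6 CPM in P5 CD11c+ and 164, 99.0 and 82.7 CPM in P5 CD11c- libraries. It was at 888 and 918 CPM in 9-month CD11c+ and 262 and 187 CPM in 9-month CD11c- libraries, with no overlap between any of the groups. Adgrg1, the adhesion G-protein-coupled receptor GPR56, was at 100.5, 42.4 and 128 CPM in P5 CD11c+ and 322, 239.5 and 187 CPM in P5 CD11c- libraries. It was at 692 and 713 CPM in 9-month CD11c+ and 191 and 131 CPM in 9-month CD11c- libraries. The P5 subsets did not overlap for Adgrg1, while the CD11c- groups of the 2 ages did.

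Among the secreted proteins, Sparc, a collagen-binding matricellular glycoprotein, was at 904, 299 and 1216 CPM in P5 CD11c+ and 2754, 1951 and 1635 CPM in P5 CD11c- libraries. It was at 3078 and 3251 CPM in 9-month CD11c+ and 1288 and 1165 CPM in 9-month CD11c- libraries. Sparc was separate between subsets at both ages, in opposite directions. Olfml3, a secreted olfactomedin-domain protein, was at 389, 103 and 392 CPM in P5 CD11c+ and 719, 438 and 358 CPM in P5 CD11c- libraries, which overlapped. It was at 2541 and 2447 CPM in 9-month CD11c+ and 803 and 628 CPM in 9-month CD11c- libraries.

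Golm1 encodes a Golgi membrane protein. It was at 266, 54.6 and 255 CPM in P5 CD11c+ and 458, 285 and 233 CPM in P5 CD11c- libraries, also overlapping, and at 1401 and 1283 CPM in 9-month CD11c+ and 345 and 280.2 CPM in 9-month CD11c- libraries. Crybb1, a beta-crystallin named for the eye lens, had another order of groups. It was at 221, 83.2 and 218 CPM in P5 CD11c+ and 621, 422 and 398 CPM in P5 CD11c- libraries, and at 202 and 206 CPM in 9-month CD11c+ and 85.5 and 57.4 CPM in 9-month CD11c- libraries. Its highest group was the P5 CD11c- cells, whereas the other 8 genes were highest in 9-month CD11c+ cells.

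**Figure D1:**
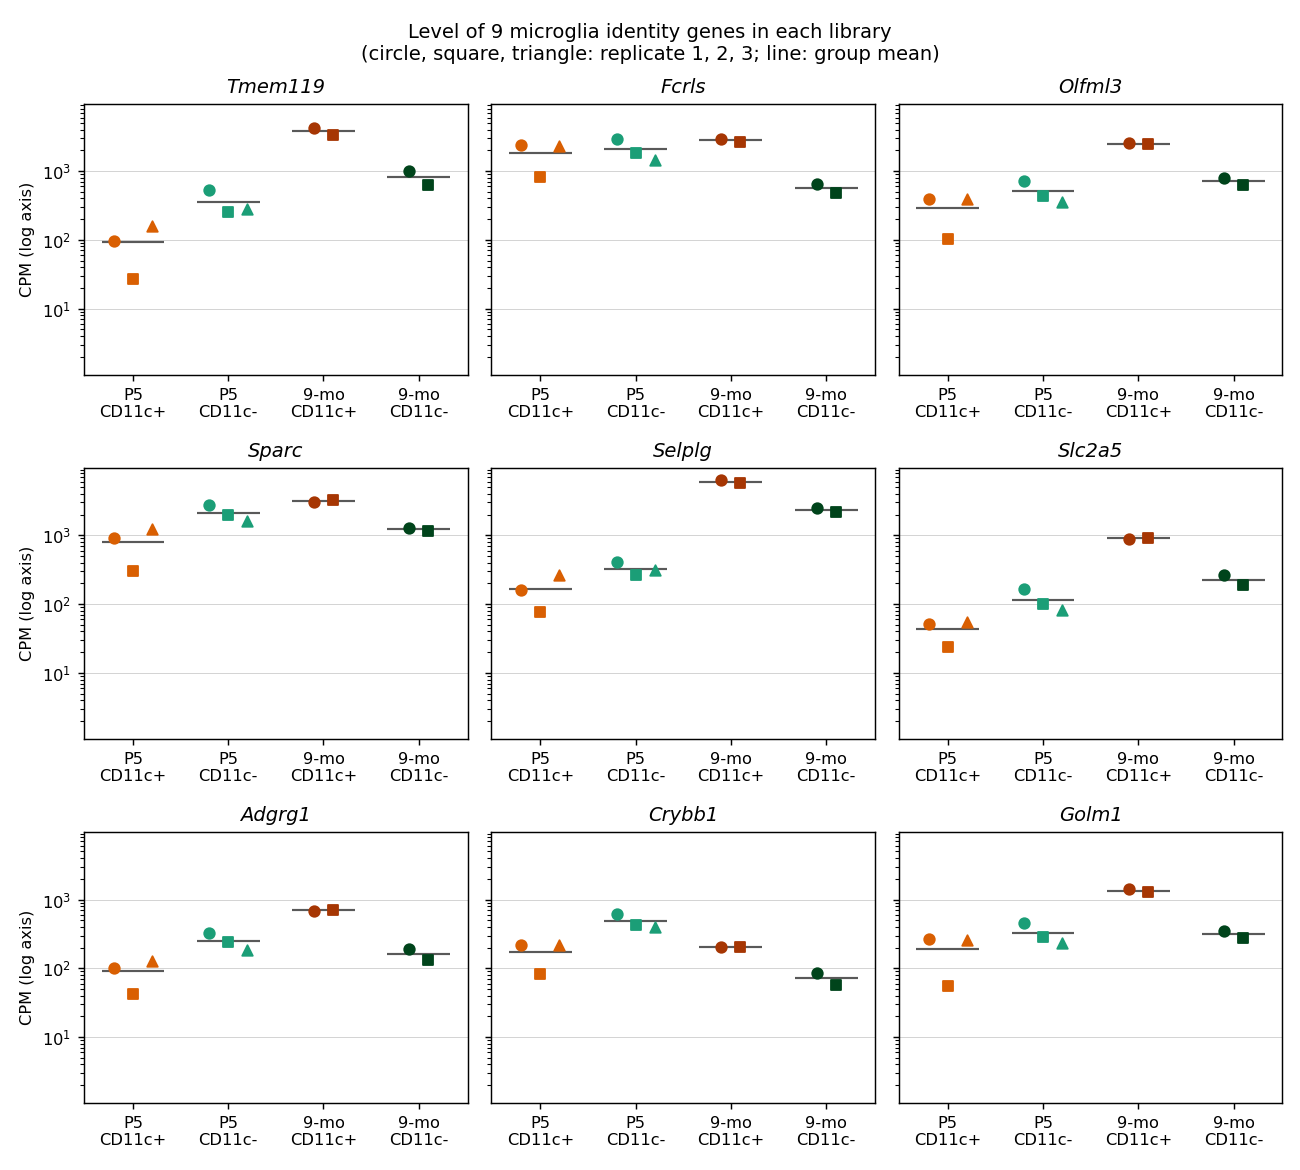
Level of each of the 9 genes in CPM on a log axis, with 1 point per library (circle, square and triangle for replicates 1, 2 and 3) and a line at the group mean. Tmem119 runs from 27.1 to 4202 CPM across libraries, Fcrls overlaps between the P5 subsets, and Crybb1 alone is highest in P5 CD11c- cells.

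Ordered by group mean, 4 genes (Tmem119, Olfml3, Selplg and Slc2a5) ran from 9-month CD11c+ through 9-month CD11c- and P5 CD11c- to P5 CD11c+. Neighbouring groups in that order overlapped for Olfml3 in both lower steps and for Selplg in the last step. Another 3 genes (Sparc, Adgrg1 and Golm1) ran from 9-month CD11c+ through P5 CD11c- and 9-month CD11c- to P5 CD11c+. The CD11c- groups of the 2 ages overlapped for Adgrg1 and Golm1, and the lowest pair of groups overlapped for Sparc. Fcrls (means of 2090 and 561 CPM) and Crybb1 (480 and 71.4 CPM) also had P5 CD11c- above 9-month CD11c- cells, without overlap. In 9-month over P5 ratios of mean CPM within CD11c+ cells, Tmem119 stood at 40.3, Selplg at 36.3 and Slc2a5 at 20.6, while Fcrls stood at 1.53 and Crybb1 at 1.17. Leaving out the outlying P5 library gave ratios of 29.7, 28.6, 16.8, 1.2 and 0.93. Within CD11c- cells Selplg stood at 7.09 and Tmem119 at 2.32, while Fcrls was at 0.269 and Crybb1 at 0.149. The genes thus did not share 1 ratio between the ages in either subset, and the library kit is stated only for the 9-month libraries.

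At 9 months, all 9 identity genes were higher in CD11c+ than in CD11c- cells. In edgeR's quasi-likelihood test, 9 of 9 passed an adjusted p of 0.05 in that direction, where 14.8% of the 15740 genes tested did. Their median log2 fold change was 1.64, against 0.02 over all genes. Fcrls had the largest estimate, a log2 fold change of 1.95 (SE 0.157, adjusted p = 0.000226), which differed from the next by less than 1 SE. Tmem119 rose by 1.85 (SE 0.212, adjusted p = 0.00102), Adgrg1 at 1.76 (SE 0.170, adjusted p = 0.000483), Golm1 at 1.73 (SE 0.145, adjusted p = 0.000269) and Slc2a5 at 1.64 (SE 0.160, adjusted p = 0.000511). The smaller rises were those of Olfml3 at 1.43 (SE 0.143), Crybb1 at 1.15 (SE 0.180), Selplg at 1.01 (SE 0.138) and Sparc at 0.99 (SE 0.132), with adjusted p between 0.000559 and 0.00365. Of 40 other microglial genes, 36 rose, with a median of 1.29. The 4 of these with the smallest p were Pros1 (1.82) and Slco2b1 (1.86), a protein S and an organic anion transporter, the nucleotide receptor P2ry13 (1.55) and the growth factor receptor Csf1r (1.89).

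The neutrophil and monocyte markers given above differed between the same libraries. When the libraries were scaled instead to the summed counts of those 40 microglial genes, the median of all genes was -1.15 and 3 of the 9 identity genes passed, where 0.794% of all genes did. These were Fcrls (0.77, SE 0.204, adjusted p = 0.0125), Golm1 (0.55, adjusted p = 0.0392) and Tmem119 (0.66, adjusted p = 0.0476). Sparc (-0.18), Selplg (-0.16) and Crybb1 (-0.03) then had estimates just below 0 and did not pass. Over all genes, 2333 were called higher and 2869 lower with TMM scaling, 125 and 8317 when scaled to the 40 genes, and 4005 and 2062 when scaled to library totals. In a single TMM-scaled fit of all 10 libraries 0 of the 9 passed at an adjusted p of 0.05, where 1.43% of all genes did. The median of the 9 was 1.78 in that fit, none was negative and 7 had an unadjusted p under 0.05, with an SE of 0.745 for Tmem119 against 0.212 in the fit of 9-month libraries alone. In counts per count of the 40 genes, the 9 genes stood at 0.27 and 0.268 in CD11c+ and at 0.26 and 0.209 in CD11c- libraries. The part of the blood-cell markers in the rises under TMM scaling was not tested.

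At P5 the estimates of the 9 genes pointed the other way, but none of the 9 passed in edgeR with all 6 libraries. That test called 0 of 9 genes, and over all 15410 genes it called 0% lower and 0.299% higher. At an unadjusted p under 0.05, 6 of the 9 and 409 genes in all were lower. DESeq2 called 4 of the 9 lower (Tmem119, Slc2a5, Adgrg1 and Crybb1), against 1.04% of all genes. The estimates ran from -2.05 for Tmem119 (SE 0.623, adjusted p = 0.415), -1.63 for Crybb1 (SE 0.416, adjusted p = 0.273) and -1.62 for Adgrg1 (SE 0.423, adjusted p = 0.291) to -0.35 for Fcrls (SE 0.477, adjusted p = 0.870). Their median was -1.54, against 0.06 over all genes.

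Without the outlying library, 5 of the 9 genes fell in CD11c+ cells at P5 and 4.42% of all genes did. The transmembrane marker Tmem119 fell by 1.59 on the log2 scale (SE 0.323, adjusted p = 0.0298). Crybb1 fell by 1.28 (SE 0.173, adjusted p = 0.00827), Adgrg1 by 1.27 (SE 0.197, adjusted p = 0.0131), Slc2a5 by 1.23 (SE 0.207, adjusted p = 0.0168) and Sparc by 1.14 (SE 0.239, adjusted p = 0.0323). Selplg (-0.78, adjusted p = 0.0937), Olfml3 (-0.50, adjusted p = 0.190) and Golm1 (-0.46, adjusted p = 0.203) did not pass. Fcrls stood at 0.03 (SE 0.245, adjusted p = 0.957). Scaled in addition to the 40 other microglial genes, 4 of the 9 fell (Tmem119, Slc2a5, Adgrg1 and Crybb1), where 1.9% of all genes did, and Fcrls stood at 0.25.

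**Figure D2:**
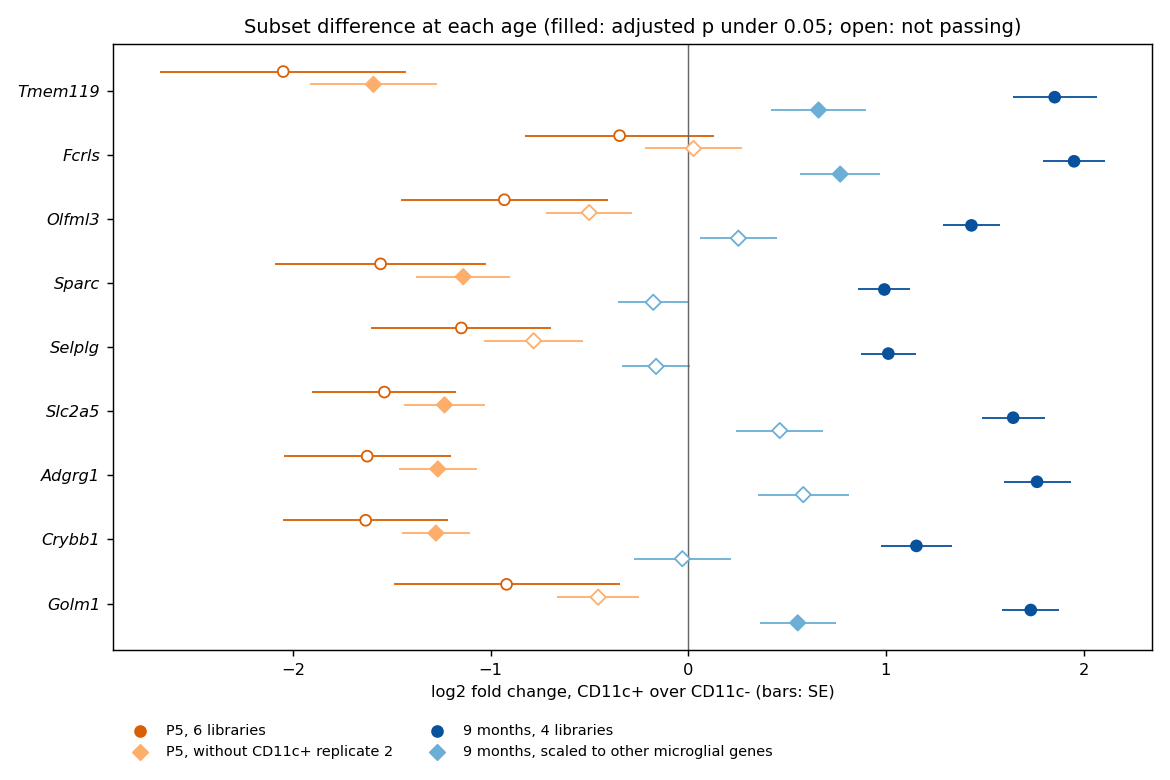
Log2 fold change of CD11c+ over CD11c- cells for each gene, with SE as bars, at P5 with 6 libraries and without CD11c+ replicate 2, and at 9 months scaled by TMM or to other microglial genes. Filled points passed an adjusted p of 0.05: none of 9 at P5 with 6 libraries, 5 without that replicate, 9 at 9 months and 3 after scaling to other microglial genes.

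Other microglial genes gave the following counts at P5. Of the 39 tested with 6 libraries, 0 passed in either direction, with a median of -0.65. Without the outlying library 5 fell and 1 rose, with a median of -0.46, where 4.42% of all genes fell and 5.06% rose. The axon-guidance-related Nav3 (-1.19), Sall3 (-0.98), Ecscr (-1.30), Arhgap5 (-0.99) and the lectin Siglech (-0.99) fell. Gas6, a ligand of TAM receptors, rose by 1.24. Counts of the 9 genes per count of these 40 were 0.18, 0.0861 and 0.197 in P5 CD11c+ libraries and 0.247, 0.255 and 0.235 in P5 CD11c- libraries, so every CD11c+ value lay below every CD11c- value.

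Markers of other macrophages and mitochondrial transcripts also differed between the P5 subsets. The 20 border macrophage markers, led by Stab1, took 1.75% to 2.17% of counts in P5 CD11c+ libraries and 0.166% to 0.317% in P5 CD11c- libraries, and none was at 0 in either group. Of the 19 tested, 9 rose with 6 libraries and 17 without the outlying one. The 13 mitochondrial transcripts took 0.771% to 2.79% of counts in P5 CD11c+ and 7.14% to 28% in P5 CD11c- libraries. At 9 months the border macrophage markers took 0.243% to 0.254% in CD11c+ and 0.0641% to 0.0746% in CD11c- libraries. The 20 activated microglia markers, led by Apoe, took 2.07% to 3.62% in P5 CD11c+ and 0.970% to 1.83% in P5 CD11c- libraries, and 1.97% to 2.10% against 0.695% to 0.756% at 9 months. Of these, 0 of 20 passed at P5 with 6 libraries and 8 rose without the outlying one, and 8 rose and 4 fell of the 19 tested at 9 months. Over all genes, 0.299% rose at P5 with 6 libraries and 5.06% without the outlying one. At 9 months 14.8% of all genes rose and 18.2% fell. The part of these lists in the differences of the identity genes was not tested.

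**Figure D3:**
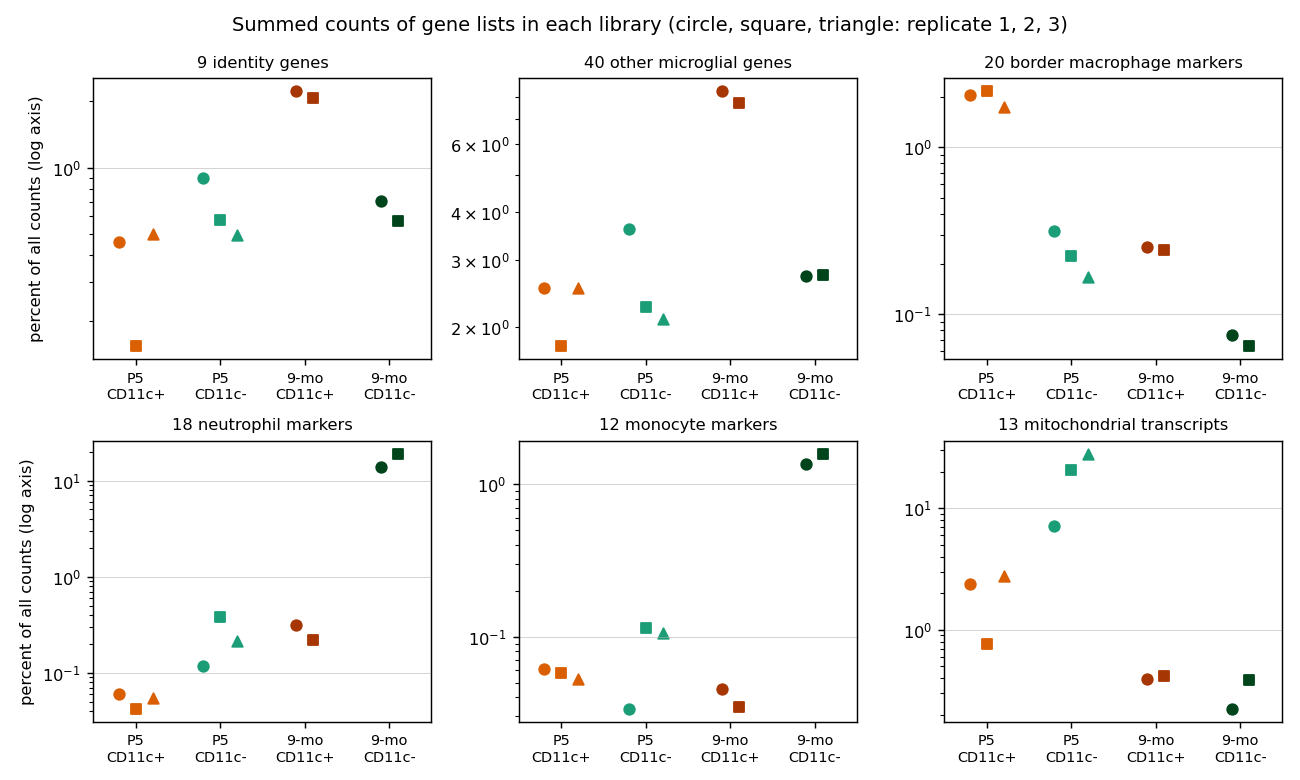
Summed counts of 6 gene lists as a percent of all counts in each library, on log axes with 1 point per library. The 9 identity genes are highest in 9-month CD11c+ libraries (2.06% and 2.23%), border macrophage markers in P5 CD11c+ libraries (up to 2.17%) and neutrophil markers in 9-month CD11c- libraries (13.9% and 18.9%).

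The subset difference was then compared between the ages as an interaction term over all 10 libraries. Any difference in library kit between the ages also enters it. The kit is not stated for P5. The interaction term was positive for all 9 genes, from 2.30 for Selplg to 4.04 for Tmem119. Slc2a5 (3.35, SE 0.647, adjusted p = 0.0335) and Adgrg1 (3.55, SE 0.704, adjusted p = 0.0369) passed, 2 of 9 where 0.302% of all 19555 genes tested passed in that direction. Crybb1 (2.94, adjusted p = 0.0630) and Tmem119 (4.04, adjusted p = 0.0722) did not. Without the outlying P5 library all 9 passed, where 8.76% of all genes did, with estimates from 1.90 for Selplg to 3.57 for Tmem119. Without that library and scaled to the 40 other microglial genes, 4 of 9 passed (Tmem119, Slc2a5, Adgrg1 and Crybb1), where 1.01% of all genes did. DESeq2 on all libraries passed 9 of 9, where 3.86% of all genes passed. When P5 CD11c+ replicate 1 or any 1 of the P5 CD11c- libraries was left out, 0 of 9 passed. In these fits 0% to 0.0499% of all genes passed in that direction. Without P5 CD11c+ replicate 3, 3 of 9 passed, where 0.156% of all genes did. Leaving out a 9-month library left 1 in its group, and the median estimate of the 9 genes was then 2.78 to 2.88. Of the 40 other microglial genes, 4 passed with all libraries: Sall3 (2.25), the phagocytic receptor Mertk (2.43), Ecscr (2.66) and Nav3 (2.09). Without the outlying library 31 of the 40 passed in that direction.

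Ranks do not depend on how libraries are scaled to each other. Genes were ranked in each library by TPM, counts corrected for exon length and scaled to the library, with 1 the highest. In P5 CD11c+ libraries Tmem119 ranked 1308, 5207 and 699, and in P5 CD11c- libraries 169, 365 and 305. At 9 months it ranked 24 and 33 in CD11c+ and 118 and 169 in CD11c- libraries, so it gained places with the CD11c+ subset at 9 months and lost them at P5. Slc2a5 ranked 3709, 8263 and 3427 in P5 CD11c+ and 1032, 1530 and 1734 in P5 CD11c- libraries, and 161 and 156 against 714 and 926 at 9 months. Fcrls ranked 34, 137 and 37 in P5 CD11c+ and 27, 55 and 59 in P5 CD11c- libraries. It ranked 41 and 44 in 9-month CD11c+ and 178 and 238 in 9-month CD11c- libraries. Fcrls thus stayed among the most abundant transcripts of P5 CD11c+ cells, where Slc2a5 and Adgrg1 (ranks 3086, 7582 and 2372) were the least abundant of the 9.

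For 8 of the genes (all but Fcrls) the rank was lower in every P5 CD11c+ library than in every P5 CD11c- library, where 8.71% of genes with a mean of at least 1 CPM did. The count was 8 also without the outlying library, where 18.6% of genes did. At 9 months 9 of 9 ranked higher in both CD11c+ libraries, where 47.7% of genes did, so at that age the background was large. No test was made of ranks, since an exact two-sided permutation test cannot go below p = 0.1 with 3 against 3 libraries or p = 0.333 with 2 against 2.

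**Figure D4:**
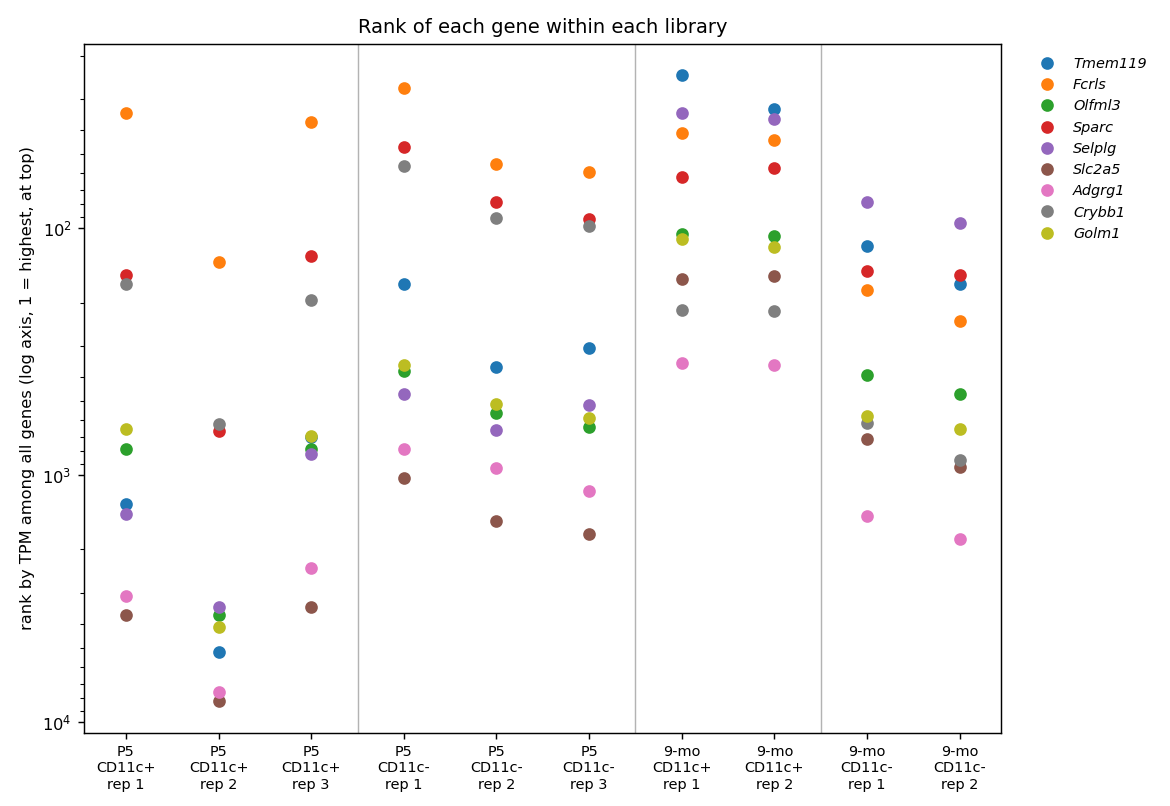
Rank of each gene by TPM among all genes of a library, on a log axis with 1 at the top and 1 column of points per library. Fcrls leads in all P5 libraries (27 to 137), Tmem119 leads in 9-month CD11c+ libraries (24 and 33), and P5 CD11c+ replicate 2 places every gene lower than the other P5 libraries do.

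The order among the 9 genes also differed. By mean TPM, P5 CD11c- cells were led by Fcrls, Sparc and Crybb1, with Slc2a5 last, and P5 CD11c+ cells by the same 3 in the same order, also with Slc2a5 last. In 9-month CD11c+ cells the order was Tmem119 (4349 TPM, SD 728), Selplg (3769, SD 276) and Fcrls (3190, SD 258), with Adgrg1 last (345, SD 3.66). In 9-month CD11c- cells Selplg led (959.9 TPM, SD 173), followed by Tmem119 (631, SD 253), Sparc (573, SD 93.4) and Fcrls (428, SD 125). The ranks of Selplg (78 and 95) and Tmem119 (118 and 169) did not overlap there, whereas those of Tmem119 and Sparc (149 and 155) did.

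As a percent of the summed TPM of the 9 genes, which does not change with the total amount of their RNA, Fcrls made up 58.8%, 59.6% and 53.8% in P5 CD11c+ libraries and 38.5%, 37.1% and 34.2% in P5 CD11c- libraries. P5 CD11c+ replicate 2, low in every gene, had a makeup close to that of its replicates. Crybb1 made up 13%, 14.3% and 12.1% in P5 CD11c+ and 19.1%, 20.2% and 22.0% in P5 CD11c- libraries. At 9 months Crybb1 was at 3.04% and 3.40% in CD11c+ and 4.24% and 3.61% in CD11c- libraries. Within P5, the CD11c+ libraries thus had a larger Fcrls share and a smaller Crybb1 share than the CD11c- libraries, without overlap. At P5 the shares of 5 genes (Tmem119, Sparc, Slc2a5, Adgrg1 and Crybb1) were lower in every CD11c+ library and that of Fcrls was higher. Without replicate 2, the share of Golm1 was higher as well, which made 2. A larger Fcrls share by itself lowers the other shares. Log2 TPM was therefore also taken relative to the mean log2 TPM of the 9 genes. On that scale 3 genes (Tmem119, Sparc and Adgrg1) were lower in every P5 CD11c+ library and 2 (Fcrls and Olfml3) were higher. The other 4, Slc2a5 and Crybb1 among them, overlapped. Without replicate 2 the same 5 genes as by share were lower, 3 were higher and 1 overlapped.

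At 9 months Tmem119 and Selplg made up a larger part than at P5 in every library. Tmem119 made up 26.9% and 23.6% in CD11c+ and 21.1% and 17.0% in CD11c- libraries. Selplg made up 21.9% and 22.0% in CD11c+ and 28.2% and 31.6% in CD11c- libraries. The 2 neighbouring genes therefore had opposite subset directions in their shares at that age. The shares of 5 genes were higher in both CD11c+ libraries (Tmem119, Fcrls, Slc2a5, Adgrg1 and Golm1), those of 3 lower (Sparc, Selplg and Crybb1), and that of Olfml3 overlapped. Selplg is also expressed by other leukocytes, and neutrophil markers were high in the same CD11c- libraries. Its part in the larger CD11c- share was not tested.

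**Figure D5:**
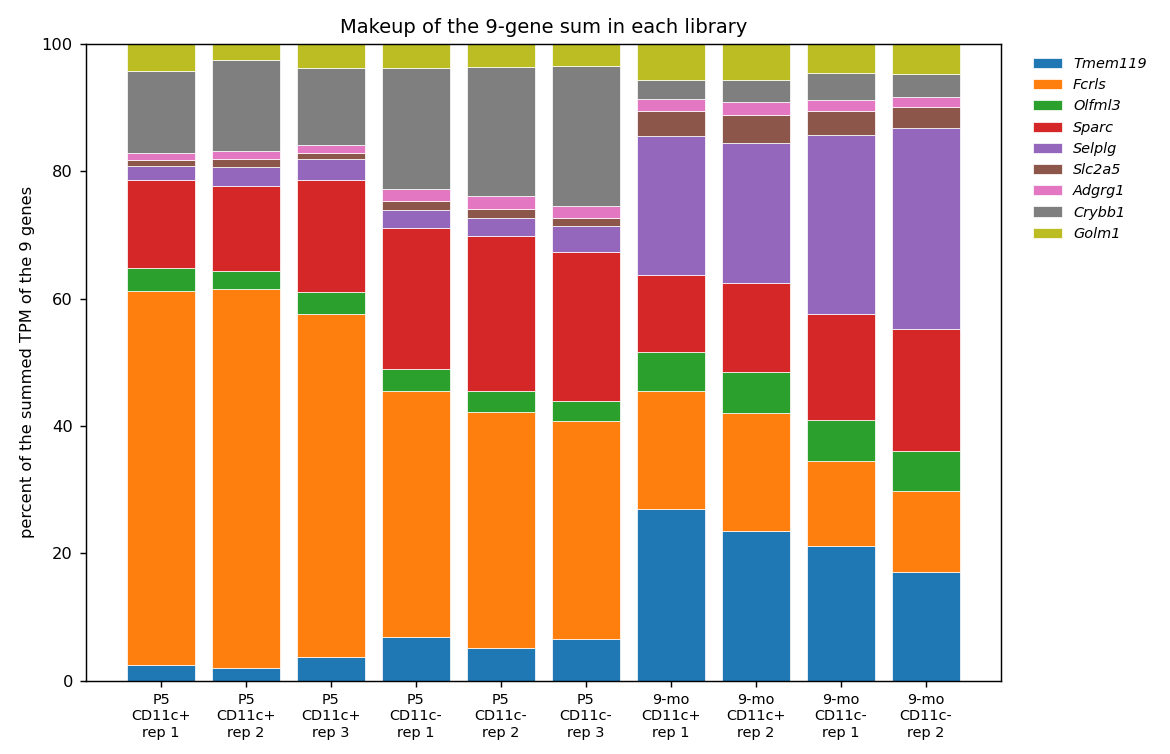
Percent of the summed TPM of the 9 genes taken by each gene, as 1 stacked bar per library. Fcrls takes 53.8% to 59.6% in P5 CD11c+ libraries, and Tmem119 with Selplg takes the largest part in 9-month libraries.

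Across the 10 libraries, which share their age and subset groups, each gene's log2(CPM + 1) profile was compared with the mean of the other 8. Pearson's r was 0.982 for Golm1, 0.978 for Olfml3, 0.977 for Adgrg1, 0.947 for Tmem119, 0.941 for Slc2a5 and 0.914 for Sparc. It was 0.793 for Selplg, 0.397 for Fcrls and 0.180 for Crybb1. Without the outlying library the values were 0.915 to 0.969 for Golm1, Olfml3, Adgrg1, Slc2a5 and Tmem119, 0.858 for Sparc, 0.721 for Selplg, 0.249 for Fcrls and -0.099 for Crybb1. The closest pairs were Tmem119 with Slc2a5 (0.989) and Olfml3 with Golm1 (0.984), and the least alike was Selplg with Crybb1 (-0.239). Crybb1 with Slc2a5 gave 0.012, and Fcrls with Crybb1, the 2 genes with the smallest ratio between ages in CD11c+ cells, gave 0.792. Without that library these 5 pairs gave 0.992, 0.975, -0.535, -0.245 and 0.762 in the same order. Among 9292 genes with a mean of at least 10 CPM, those most like the mean profile of the 9 included Capn3 (0.993), a calpain protease, Ldhb (0.992), a lactate dehydrogenase subunit, the purinergic receptor P2ry12 (0.990) and Spsb1 (0.987). Without the outlying library these 4 stood at 0.987, 0.991, 0.983 and 0.977. P2ry12 belongs to the 40 other microglial genes.

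Neighbouring genes close to 4 of the genes differed in whether they went the same way. Naa35, 0.197 kb from Golm1 and encoding an acetyltransferase subunit, was at 90.1 and 94.8 CPM in 9-month CD11c+ and 44.8 and 49.6 CPM in 9-month CD11c- libraries, a rise of 0.59 on the log2 scale (adjusted p = 0.0450), and Golm1 rose too. Tpst2, a tyrosine sulfotransferase gene 7.105 kb from Crybb1, was at 479 and 448 against 227 and 170.3 CPM (0.86, adjusted p = 0.00636), also in the direction of its neighbour. Adgrg3, which starts 3.474 kb from Adgrg1 and is known from granulocytes, was at 114 and 85.4 CPM in 9-month CD11c- libraries and at 2.16 and 1.62 CPM in 9-month CD11c+ libraries, the reverse of Adgrg1. At P5 Adgrg3 was at 1.32, 0.763 and 1.18 CPM in CD11c+ and 4.18, 9.22 and 3.53 CPM in CD11c- libraries, lower in CD11c+ as Adgrg1 was (-2.54, adjusted p = 0.306, and -2.36, adjusted p = 0.0382, without the outlying library). Cryba4, another crystallin gene, lies 3.296 kb from Crybb1. It was at 55.3 and 56.0 CPM in 9-month CD11c+ and 16.0 and 20.6 CPM in 9-month CD11c- libraries, and at 50.9, 43.9 and 49.6 against 89.8, 51.9 and 50.4 CPM in P5 CD11c+ and CD11c- libraries. Cryba4 was thus higher in CD11c+ cells at 9 months, as Crybb1 was, and lay lower in every P5 CD11c+ library than in any but the lowest P5 CD11c- library. Hipk1, a kinase gene 1.813 kb from Olfml3, was at 30.4 and 24.1 CPM in 9-month CD11c+ and 48.0 and 61.6 CPM in 9-month CD11c- libraries, opposite to Olfml3.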

How the data were processed

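RNA was measured in 10 libraries of 4 groups. What the authors deposited are whole-number read counts for 49315 genes in each library, not normalized. Per the submitters' processing notes, Trimmomatic 0.36, STAR 2.5.2b and Subread 1.5.2 were used. Genome build, strandedness and treatment of multiply mapped reads are not given in the sources used here. Symbols came from GENCODE M21 (GRCm38), in which 91.4% of the 49056 shared identifiers had the deposited start and end, and no per-sample column was unused (0 columns).

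CPM scales a count to the library total, TPM also divides by the deposited exon length, and both were computed here. A separate fit was made for each age with edgeR 4.0.16 (R 4.3.3; filterByExpr, TMM scaling, quasi-likelihood F-test, two-sided), and the difference between ages as an interaction over all libraries. P-values were adjusted by Benjamini-Hochberg over all genes tested, with a threshold of 0.05, and SE was taken from the fold change and F. The procedure was run on simulated counts with the same dispersion in every gene and library. Those counts held no outlying library, unlike the P5 data, and the outcome is not given here. Alternatives were DESeq2 1.42.0, library totals, scaling to 40 other microglial genes, no filter, a replicate block, 1 fit of all libraries and each library left out. Ranks and shares have no test. Low counts carry counting error, and the reads have no molecular identifiers. Replicates differed by far more than sampling noise.

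The 9 genes, the gene lists and the tests were chosen with earlier results of these data known. Named genes are the 9, up to 4 other microglial genes with the smallest p per age, the 5 genes most like the mean profile (mean of at least 10 CPM), the nearest protein-coding genes with a mean of at least 1 CPM, and the most abundant gene of a list. The other microglial genes that passed at P5 or in the interaction, and Itgax, were named after their values were seen. Some items that the rule names are not reported here. Neutrophil, eosinophil, monocyte, border macrophage, activated microglia and mitochondrial lists are described, and the other lists are not.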

Additional observations from a re-analysis of the deposited data

Results flagged for a closer look

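The subset difference of 2 genes differed between the ages by the interaction test over all 10 libraries. For Slc2a5 the log2 fold change of CD11c+ over CD11c- cells was 3.35 higher at 9 months than at P5, and for Adgrg1 it was 3.55 higher (edgeR adjusted p = 0.0335 and 0.0369). Of all 19555 genes, 0.302% passed in that direction. Any difference in library kit between the ages also enters this term. Both genes passed with DESeq2 and without P5 CD11c+ replicate 2. Neither passed with the replicate block, or without P5 CD11c+ replicate 1 or any 1 P5 CD11c- library. By CPM, all 3 CD11c+ libraries were below all 3 CD11c- libraries at P5 for both genes. Both CD11c+ libraries were above both CD11c- libraries at 9 months. By TPM the P5 subsets overlapped for Slc2a5 (up to 47.5 in CD11c+, down to 45.5 in CD11c-) and for Adgrg1 (68.8 and 64.4). The share of all genes separate by CPM was not computed. For 8 of the 9 genes, all but Fcrls, the rank within a library was lower in every CD11c+ library at P5 and higher in both CD11c+ libraries at 9 months. Of genes with a mean of at least 1 CPM, 8.71% met the P5 condition and 47.7% the 9-month condition. The share of genes meeting both was not computed. The difference in rank between the ages was not tested.

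The shares of the 9-gene sum turned in the same way for 3 genes. The mean share in CD11c+ over that in CD11c- libraries was 0.438 at P5 and 1.32 at 9 months for Tmem119. It was 0.714 and 1.15 for Slc2a5, and 0.641 and 1.25 for Adgrg1. In each case every library of a subset lay on the same side, and the difference between the ages was not tested. The P5 separation of Slc2a5 depended on the measure. As log2 TPM relative to the mean log2 TPM of the 9 genes, its P5 subsets overlapped (up to -1.91 in CD11c+, down to -2.21 in CD11c-). Without P5 CD11c+ replicate 2 they were separate, with CD11c+ lower. Tmem119 and Adgrg1 were separate on that scale at both ages, in the same directions as their shares.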

How the results depend on the processing

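Precision was limited most by P5 CD11c+ replicate 2, in which Tmem119 and Slc2a5 rest on 71 and 63 reads, and by 2 libraries a group at 9 months. The count of the 9 genes passing at P5, 0 with all 6 libraries, was 4 with DESeq2, 4 without that replicate and scaled to other microglial genes, and 0 to 5 with a library left out. At 9 months the 9 became 3 when scaled to other microglial genes with a median log2 fold change of 0.46, and 0 in 1 fit of all 10 libraries, in which the median was 1.78 against 1.64. The same fit without P5 CD11c+ replicate 2, chosen after seeing the data, gave 9. For the difference between ages, the 2 became 9 with DESeq2 (3.86% of all genes in that direction), 4 with library totals (0.414%) and 4 without a filter (0.376%). The count was 4 without that replicate and scaled to other microglial genes (1.01%). It was 0 to 9 with a P5 library left out (0% to 8.76%). The P5 fold change of Fcrls ranged from -0.60 to 0.03 with a library left out, turning to 0.03 without that replicate and to 0.25 when also scaled. At 9 months Sparc turned to -0.18, Selplg to -0.16 and Crybb1 to -0.03 when scaled to other microglial genes. The number of genes with a higher share at P5, 1, became 2 without that replicate, an alternative also added after seeing the data. Scaling to library totals put the median of all genes at 0.26 at P5 and 0.40 at 9 months, and scaling to other microglial genes at 0.43 and -1.15. Ranks by CPM or among protein-coding genes gave the same counts of 8 and 9. Over all genes, the P5 test called 46, against 555 with DESeq2 and 1501 without that replicate. Where an alternative changed a result, the cause was not tested.

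With the replicate block, 0, 9 and 0 of the genes passed at P5, at 9 months and for the difference between ages. Over all genes, that setting called 0 of 15410 at P5 and 0 of 19555 for the difference between ages. At 9 months it called 15.8% of all genes higher. Whether equal replicate numbers mark paired samples is not stated. Same-numbered deviations from the group mean correlated at 0.457, 0.095 and -0.403 at P5 and at 0.086 at 9 months. Pairs of unlike number gave -0.473 to 0.459 at P5. With 2 libraries a group, the 9-month values can differ only in sign. These values cannot decide the pairing, since groups hold 2 or 3 libraries and the P5 CD11c+ deviations include the outlying library.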
